A study of Mus musculus with 14 samples.

Results

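The 10 genes described here serve antigen presentation to CD4 T cells and were followed across bone marrow monocytes of mice deficient for the aryl hydrocarbon receptor (AhR) and of wild-type mice, cultured with or without IL-4. They were the class II chains H2-Aa, H2-Ab1 and H2-Eb1, the peptide-loading genes H2-DMa and H2-DMb1, the invariant chain Cd74, the class II regulator Ciita, and the costimulatory genes Cd40, Cd80 and Cd86. They were chosen by name, from their Ensembl identifiers in the table of raw counts. All 10 were found among 55487 gene entries, and all 10 passed the filter on low counts that kept 14754 genes.

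MHC class II molecules are pairs of an alpha and a beta chain that carry peptides from the endosome to the cell surface. The invariant chain Cd74 fills their groove until H2-DM exchanges its remnant for a peptide, and the coactivator CIITA switches on class II, Cd74 and H2-DM genes through a shared promoter module. CD80 and CD86 give T cells the second signal through CD28, and CD40 receives help from T cells. IL-4, a cytokine of type 2 immunity that acts through STAT6, is known to raise class II on B cells and macrophages. AhR switches on its target genes once a small aromatic compound binds it.

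The groups were AhR-deficient cells in IL-4 (n = 3, numbers 4, 5 and 6), wild-type cells in IL-4 (n = 4, numbers 1, 2, 3 and 7), their AhR-deficient counterparts in medium (n = 3) and the wild-type ones (n = 4), under the same numbers. Monocytes were enriched from leg bones with an immunomagnetic kit. IL-4 was given at 20 ng/mL and culture lasted 3 h in all groups. The labels give neither the strain, sex or age of the mice nor the AhR allele, and do not say whether a number is an animal or a pool. Levels are CPM, read counts divided by library size after TMM scaling. Fold changes are log2 values ± SE from edgeR's quasi-likelihood test, and a gene is called at a Benjamini-Hochberg adjusted p under 0.05 over all genes tested.

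Total counts ran from 33432502 to 42885079 per library. The monocyte markers Lyz2 (8148 CPM or more) and Csf1r (1509 CPM or more) were high in every library, so the labelled cell type had its markers. Ahr itself was expressed in the libraries labelled AhR-deficient, at 36.9 to 45.2 CPM in IL-4 and 15.7 to 26.1 CPM in medium. Wild-type libraries had less in each condition, 23.7 to 26.9 CPM in IL-4 and 11.4 to 14.4 CPM in medium. Counts per gene cannot show a deleted exon. Xist, the RNA of the inactive X chromosome, had at least 987 CPM in each AhR-deficient library and at most 2.12 CPM in each wild-type one, and the Y-linked Ddx3y had 0 counts in every AhR-deficient library. Genotype and the sex typed by these RNAs therefore cannot be told apart in any genotype comparison below. In bulk RNA, fewer cells of a type and less RNA per cell cannot be told apart either.

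One library stood apart in class II genes, wild type in medium number 7, called WT medium 7 here. Its H2-Ab1 level was 291 CPM, against 106 to 117 CPM in the other 3 wild-type libraries in medium. It was not apart in most genes: 90 of 10575 genes lay a log2 of 1 or more from the mean of the other libraries of its group. WT medium 1 had 164 such genes by the same measure. The sex-linked RNAs of WT medium 7 were those of wild type (Ddx3y 143 CPM, Xist 0.344 CPM). Across genes, its deviations from its group mean correlated with those of wild type in IL-4 number 7 at r = 0.17. In numbers 1 to 6 that r was 0.486 to 0.706. Ccr2, a chemokine receptor of classical monocytes that was lower in AhR-deficient cells in both conditions, stood at 478 CPM in WT medium 7. It stood at 302 to 471 CPM in AhR-deficient cells in medium and at 1424 to 1729 CPM in the other 3 wild-type libraries in medium. Of 500 autosomal genes called for genotype in edgeR from the IL-4 libraries alone, WT medium 7 lay nearer the AhR-deficient mean in medium than the mean of the other wild-type libraries for 42.2%, against 6.8%, 8% and 22.6% for WT medium 1, 2 and 3. Of the 10 presentation genes it lay nearer that mean for 9, against 2, 0 and 1. Results for the 10 genes are given below with this library and, where a call or value depends on it, also without it.

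Letters of the class II promoter module were found before the RefSeq start of 3 members, and those of H2-Aa and H2-Eb1 are shown, since their genotype differences were among the largest in IL-4. A match is a description of the sequence and not a site of binding. RefSeq promoters of GRCm38.p6 were at hand for 5 of the 10 genes (H2-Aa, H2-Eb1, H2-DMa, H2-DMb1 and Cd80). The RefSeq start of H2-DMb1 lies inside the gene as GENCODE places it, so its window, where the letters were also found, is not shown. The 130 bases before the start site are printed on the strand of the gene, with matches to the X1 letters CTNGNAAC and to the Y letters TGATTGG in capitals. The gap between them was 26 bases in H2-Aa and 25 bases in H2-Eb1.
H2-Aa, chr17:34287824-34287953, minus strand: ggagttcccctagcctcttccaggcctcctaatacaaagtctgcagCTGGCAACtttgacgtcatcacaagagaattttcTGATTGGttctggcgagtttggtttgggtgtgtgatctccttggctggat
H2-Eb1, chr17:34305737-34305866, plus strand: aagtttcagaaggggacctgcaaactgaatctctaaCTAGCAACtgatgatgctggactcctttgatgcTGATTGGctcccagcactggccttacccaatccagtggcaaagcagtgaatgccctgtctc

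Over windows from 250 bases before to 50 bases after a start, X1 letters occurred on either strand in 13.2% of 32851 promoters and Y letters in 7.82%. X1 followed by Y after 15 to 30 bases occurred in 0.0639%, or 21 promoters, which included those of H2-Aa, H2-Eb1, H2-DMb1 and H2-Ob. The Y letters hold ATTGG, the reverse complement of a CCAAT box. No match was present in the windows of H2-DMa or Cd80. The letters were written with class II promoters in mind, so these shares describe the sequences and are no test.

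Counted per kilobase of exon, Cd74 was the most abundant of the 10 RNAs and Ciita the least abundant in all 4 groups. Cd74 averaged 533 ± 53.9 CPM per kb in AhR-deficient cells in IL-4, 362 ± 33.7 in wild type in IL-4, 380.3 ± 58.6 in AhR-deficient medium cultures and 279.9 ± 123 in wild-type medium cultures (SD, n = 3, 4, 3 and 4). Ciita averaged 1.34 ± 0.158 CPM per kb in AhR-deficient and 1.69 ± 0.301 in wild-type cells in IL-4, and 0.955 ± 0.206 in AhR-deficient and 0.780 ± 0.450 in wild-type cells in medium. Cd86 and H2-Ab1 came next after Cd74 in every group. They averaged 94.9 ± 10.02 and 83.4 ± 11.4 CPM per kb in AhR-deficient cells in IL-4, which is within their spread, and 72.1 ± 3.91 and 40.3 ± 3.30 in wild type in IL-4. H2-DMb1, H2-DMa and Cd40 were within 1 SD of each other in AhR-deficient cells in IL-4, at 22.2, 21.9 and 21.6 CPM per kb. Lengths are those of all annotated exons joined, so isoforms that lack some exons are understated.

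**Figure D1:**
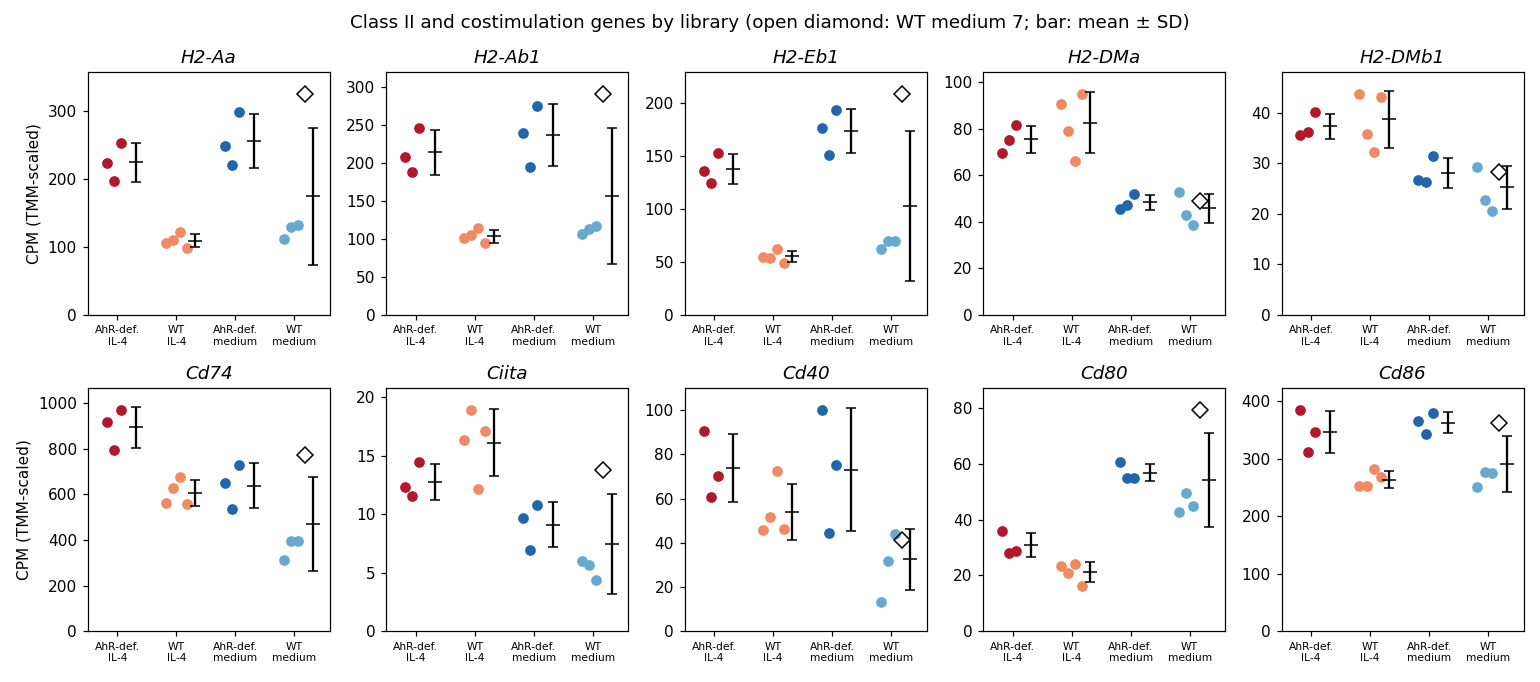
CPM of the 10 genes in each library, with the mean and SD of each group, for AhR-deficient and wild-type cells in IL-4 and in medium. WT medium 7, the open diamond, lies at 325 CPM for H2-Aa while the other wild-type libraries in medium lie at 111 to 132 CPM.

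The class II chain genes stood higher in AhR-deficient than in wild-type libraries, WT medium 7 aside, a difference that in edgeR passed with that library left out and, in IL-4, with all libraries only under some settings. H2-Aa, the A alpha chain (GRCm38 chr17:34282744-34287823, minus strand), had 223, 196 and 253 CPM in AhR-deficient cells in IL-4, against 105, 110.1, 121 and 98.1 CPM in wild type in IL-4. In medium it had 248, 219.6 and 298 CPM in AhR-deficient cells, against 111, 129, 132 and 325 CPM in wild type. Every AhR-deficient library exceeded every wild-type library except WT medium 7, which was the highest of all 14.

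H2-Ab1, the A beta chain (chr17:34257689-34269419, plus strand), had 208, 189 and 246 CPM in AhR-deficient cells in IL-4, against 101, 105, 115 and 94.3 CPM in wild type. In medium the values were 239.7, 195 and 276 CPM in AhR-deficient cells, against 106, 113, 117 and 291 CPM in wild type. H2-Eb1, the E beta chain (chr17:34305867-34316674, plus strand), had 136, 125 and 153 CPM in AhR-deficient cells in IL-4, against 55.0, 54.0, 62.4 and 49.4 CPM in wild type. Its levels in medium were 177, 151 and 194 CPM in AhR-deficient cells, against 62.5, 69.5, 70.1 and 209 CPM in wild type. In all 3 chain genes the genotypes did not overlap in IL-4, and in medium they overlapped only through WT medium 7. H2-Ea-ps, the copy of the E alpha gene annotated as a pseudogene, had 0 counts in all 14 libraries.

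In IL-4 the log2 genotype difference, AhR-deficient minus wild type, was 1.04 ± 0.28 for H2-Aa, 1.05 ± 0.28 for H2-Ab1 and 1.32 ± 0.33 for H2-Eb1. These are 2.06-fold, 2.07-fold and 2.49-fold higher levels. None of the 3 passed in edgeR with all libraries and the filter on low counts (adjusted p = 0.0783, 0.0752 and 0.0586). With all libraries they passed in edgeR without that filter (adjusted p = 0.0267, 0.0257 and 0.0155) and in DESeq2 (adjusted p = 0.0286, 0.026 and 0.0131), and H2-Eb1 also in limma-voom (adjusted p = 0.0445). All 3 passed without WT medium 7, at the same log2 differences (adjusted p = 0.000492, 0.000492 and 1.25e-05 in edgeR). That library is not in the IL-4 comparison, and it enters only through the spread that the 4 groups share. The coefficient of variation that edgeR gave H2-Ab1 was 0.259 with it and 0.109 without it. With the IL-4 libraries alone in the edgeR model, all 3 passed as well (adjusted p = 0.00114, 0.00114 and 0.000156).

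In medium the log2 differences with all libraries were 0.55 ± 0.28 for H2-Aa, 0.59 ± 0.28 for H2-Ab1 and 0.76 ± 0.32 for H2-Eb1, and none passed in edgeR (adjusted p = 0.237, 0.199 and 0.153). Leaving out WT medium 7 gave 1.04 ± 0.12, 1.08 ± 0.12 and 1.37 ± 0.11, and all 3 passed (adjusted p = 0.000759, 0.000676 and 1.93e-05). Those sizes are close to the differences in IL-4.

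Within each number except 7, the 3 chain genes in IL-4 stood at 0.769 to 0.976 of their level in medium. H2-Aa in IL-4 was 0.902, 0.893 and 0.847 of its level in medium in AhR-deficient numbers 4, 5 and 6. In wild type it was 0.949, 0.853 and 0.916 in numbers 1, 2 and 3, and 0.302 in number 7. For H2-Eb1 the IL-4 fractions were 0.769, 0.824 and 0.790 in AhR-deficient cells and 0.880, 0.778, 0.890 and 0.237 in wild type. Every number thus had less H2-Aa and H2-Eb1 in IL-4 than in medium.

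Of the 3 chain genes, edgeR with all libraries and the filter on low counts called only H2-Eb1 for IL-4, and only in wild type. It fell there by 0.89 ± 0.31 on the log2 scale (edgeR adjusted p = 0.0355). That value was -0.29 ± 0.10 without WT medium 7 (adjusted p = 0.0396). It missed the threshold with the numbers as a block in edgeR (-0.69, adjusted p = 0.0548) and without wild type in IL-4 number 1, 2 or 7 (adjusted p = 0.0654, 0.0713 and 0.0842). H2-Eb1 also missed it in limma-voom (-0.70, adjusted p = 0.0751). In edgeR the same held with only the wild-type groups in the model and without both libraries of number 7 (adjusted p = 0.0834 and 0.0992). In AhR-deficient cells its difference was -0.34 ± 0.35 with all libraries (adjusted p = 0.535). It fell there by 0.34 ± 0.10 once that library was left out (edgeR adjusted p = 0.0259). The IL-4 difference of H2-Aa was -0.19 ± 0.31 in AhR-deficient cells (adjusted p = 0.712) and -0.68 ± 0.27 in wild type (adjusted p = 0.062). Without WT medium 7 the wild-type value of H2-Aa was -0.19 ± 0.11 (edgeR adjusted p = 0.228). With all libraries H2-Aa passed in wild type in edgeR without the filter on low counts (-0.69, adjusted p = 0.0317). H2-Aa also passed there in edgeR without WT medium 1, 2 or 3 (adjusted p = 0.0204, 0.045 and 0.0428), fits in which WT medium 7 weighs more. That of H2-Ab1 was -0.14 ± 0.30 in AhR-deficient cells and -0.60 ± 0.27 in wild type (edgeR adjusted p = 0.783 and 0.0965), the second passing without WT medium 1 (adjusted p = 0.0407). Without WT medium 7 the wild-type value of H2-Ab1 was -0.12 ± 0.11 (edgeR adjusted p = 0.492).

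The invariant chain gene Cd74 (chr18:60803848-60812652, plus strand) had its highest levels in AhR-deficient cells in IL-4. It had 918, 794 and 970.3 CPM in AhR-deficient cells in IL-4, against 564, 629, 678 and 560.0 CPM in wild type in IL-4. In medium it had 651, 535 and 730.2 CPM in AhR-deficient cells, against 313, 397, 395 and 774 CPM in wild type. The IL-4 groups of the genotypes did not overlap, nor did AhR-deficient cells in IL-4 and in medium.

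The IL-4 difference of Cd74 was 0.49 ± 0.25 in AhR-deficient cells (edgeR adjusted p = 0.17) and 0.37 ± 0.21 in wild type (adjusted p = 0.206), neither passing with all libraries. With WT medium 7 left out, Cd74 rose by 0.49 ± 0.13 in AhR-deficient cells and by 0.72 ± 0.12 in wild type (edgeR adjusted p = 0.0103 and 0.000445). By number, IL-4 over medium was 1.41, 1.49 and 1.33 in AhR-deficient cells and 1.80, 1.58, 1.72 and 0.723 in wild type, the last value being number 7. The genotype difference of Cd74 was 0.56 ± 0.23 in IL-4 and 0.44 in medium (edgeR adjusted p = 0.219 and 0.241). Once the library was left out, Cd74 was higher in AhR-deficient cells, by 0.56 ± 0.12 in IL-4 and by 0.79 ± 0.13 in medium (adjusted p = 0.0329 and 0.00581).

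Ratios of RNAs within a library, which do not depend on how libraries are scaled, set the chain genes and Cd74 apart. Cd74 over H2-Ab1, per kilobase of exon, was 6.76, 6.44 and 6.03 in AhR-deficient cells in IL-4, against 8.55, 9.2, 9.06 and 9.08 in wild type in IL-4. In medium the ratio was 4.16, 4.2 and 4.05 in AhR-deficient cells, against 4.52, 5.36, 5.15 and 4.07 in wild type, the last again being number 7. All 7 IL-4 libraries lay above all 7 medium libraries, and in IL-4 all wild-type libraries lay above all AhR-deficient libraries. WT medium 7 lay within the range of AhR-deficient cells in medium.

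H2-Eb1 over H2-Ab1 was 0.820 to 0.874 in AhR-deficient cells in IL-4, against 0.683 to 0.721 in wild type in IL-4. In medium it was 0.927 to 1.03 in AhR-deficient cells, against 0.780 to 0.809 in WT medium 1, 2 and 3 and 0.947 in WT medium 7. H2-Aa over H2-Ab1, the chains that pair with each other, was 0.694 to 0.727 in AhR-deficient cells and 0.703 to 0.716 in wild type in IL-4. In medium that ratio was 0.699 to 0.763 in AhR-deficient cells and 0.709 to 0.769 in wild type. H2-DMb1 over H2-Ab1 was 0.250 to 0.293 in AhR-deficient cells in IL-4, against 0.430 to 0.699 in wild type, and in medium 0.170 to 0.206 in AhR-deficient cells, against 0.268 to 0.423 in WT medium 1, 2 and 3 and 0.149 in WT medium 7. The 4 groups overlapped in the ratio of H2-Aa to H2-Ab1, and the genotypes did not overlap in that of H2-Eb1 to H2-Ab1 except through WT medium 7. The ratios were chosen after the values were seen and carry no test.

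**Figure D2:**
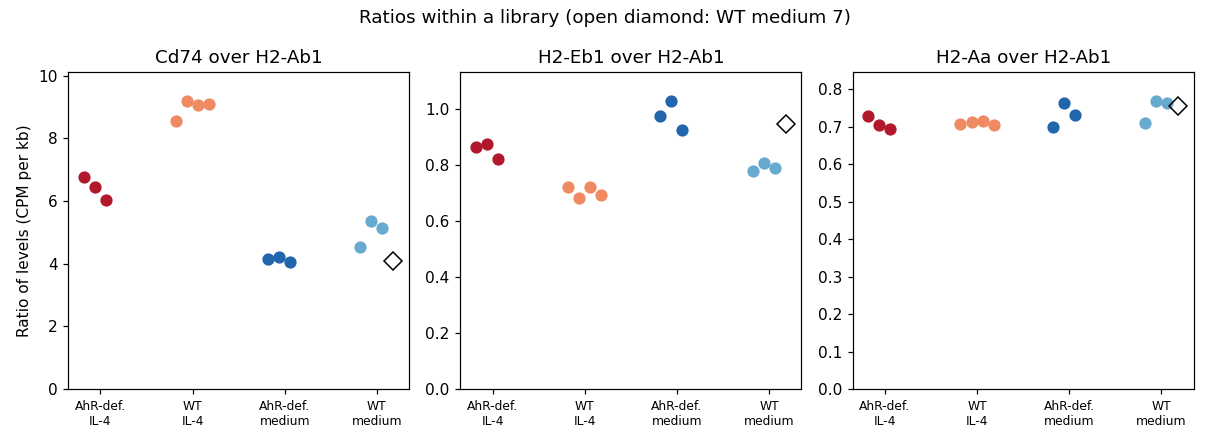
Ratio of the levels (CPM per kb) of 2 genes within each library, by group, for Cd74, H2-Eb1 and H2-Aa over H2-Ab1. Cd74 over H2-Ab1 is 6.03 to 9.2 in the IL-4 libraries and 4.05 to 5.36 in the medium libraries, while H2-Aa over H2-Ab1 stays at 0.694 to 0.769.

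The peptide-loading genes rose with IL-4 in both genotypes and gave no genotype difference that passed. H2-DMa (chr17:34119541-34139101, plus strand), the alpha chain of the peptide exchanger, had 69.5, 75.0 and 81.5 CPM in AhR-deficient cells in IL-4, against 45.6, 47.4 and 51.9 CPM in AhR-deficient medium cultures. In wild type it had 90.5, 78.9, 65.9 and 94.9 CPM in IL-4, against 52.7, 42.97, 38.7 and 48.7 CPM in medium. In each genotype every IL-4 library exceeded every medium library, WT medium 7 included. H2-DMa rose by 0.64 ± 0.13 in AhR-deficient cells and by 0.85 ± 0.11 in wild type (edgeR adjusted p = 0.00186 and 4.31e-05), which is 1.56-fold and 1.8-fold.

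H2-DMb1 (chr17:34153072-34160230, plus strand), the beta chain, had 35.7, 36.2 and 40.3 CPM in AhR-deficient cells in IL-4, against 26.7, 26.2 and 31.5 CPM in AhR-deficient medium cultures. The wild-type values were 43.8, 35.8, 32.3 and 43.2 CPM in IL-4, against 29.3, 22.8, 20.6 and 28.4 CPM in medium. The groups again did not overlap within a genotype. It rose by 0.41 ± 0.14 in AhR-deficient cells and by 0.62 ± 0.12 in wild type (edgeR adjusted p = 0.0412 and 0.00125). In AhR-deficient cells the call was lost without number 4, 5 or 6 in IL-4 (adjusted p = 0.0627, 0.0694 and 0.132), without number 4 or 5 in medium (adjusted p = 0.122 and 0.127) and with upper-quartile scaling (adjusted p = 0.0503). These fits had no block. Blocking on the numbers kept the rise in AhR-deficient cells and narrowed its error, to 0.41 ± 0.05 (edgeR adjusted p = 5.36e-05). Within a number the fold of IL-4 over medium was 1.34, 1.38 and 1.28 in AhR-deficient cells. It was 1.49, 1.57, 1.56 and 1.52 in wild type.

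The genotype differences in IL-4 were -0.13 ± 0.12 for H2-DMa and -0.05 ± 0.13 for H2-DMb1 (edgeR adjusted p = 0.605 and 0.882), with 95% intervals of -0.37 to 0.11 and -0.31 to 0.21. In medium they were 0.08 and 0.15 (adjusted p = 0.739 and 0.497). H2-DMa overlaps Brd2 on the other strand, and the strand setting of the counting is not given in the sources used here, so their reads cannot be told apart. The IL-4 difference of Brd2 itself was -0.14 ± 0.05 in AhR-deficient cells and -0.03 ± 0.04 in wild type (edgeR adjusted p = 0.0431 and 0.601). H2-DMb1 and H2-DMb2 are near-identical copies, so how their reads were split is uncertain. H2-DMb2 rose with IL-4 too, by 1.003 ± 0.272 in AhR-deficient cells and by 1.32 ± 0.23 in wild type (edgeR adjusted p = 0.0121 and 0.000487).

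Ciita, the master coactivator of class II genes (chr16:10480059-10528418, plus strand), rose with IL-4 in wild type. It had 12.3, 11.5 and 14.4 CPM in AhR-deficient cells in IL-4, against 9.63, 6.93 and 10.7 CPM in AhR-deficient medium cultures. In wild type it had 16.3, 18.9, 12.1 and 17.1 CPM in IL-4, against 6.002, 5.62, 4.34 and 13.8 CPM in medium. The AhR-deficient groups did not overlap, and the wild-type groups overlapped only through WT medium 7.

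The rise of Ciita was 1.12 ± 0.29 in wild type, or 2.17-fold (edgeR adjusted p = 0.00698), and 1.60 ± 0.18, or 3.03-fold, without WT medium 7 (adjusted p = 1.87e-05). In AhR-deficient cells the difference was 0.49 ± 0.33 (adjusted p = 0.307) and did not pass without WT medium 7 either (adjusted p = 0.0658). By number, IL-4 over medium was 1.28, 1.66 and 1.34 in AhR-deficient cells, against 2.72, 3.36, 2.79 and 1.24 in wild type numbers 1, 2, 3 and 7. The difference between these responses was -0.63 ± 0.43 (edgeR adjusted p = 1). Leaving out WT medium 7 made it -1.11 ± 0.26, with an unadjusted p of 0.00084 in edgeR and an adjusted p of 0.824, so it failed the correction.

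Genotype differences of Ciita were -0.34 ± 0.30 in IL-4 and 0.30 in medium (edgeR adjusted p = 0.592 and 0.59). The difference in medium was 0.78 ± 0.19 and passed when WT medium 7 was left out (adjusted p = 0.0287). Ciita overlaps Dexi on the other strand, and their reads cannot be told apart without the strand setting. Dexi rose with IL-4 by 0.56 ± 0.11 in AhR-deficient cells and by 0.61 ± 0.10 in wild type (edgeR adjusted p = 0.00163 and 0.000173).

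Among the costimulatory genes, Cd80 fell with IL-4 in both genotypes. Cd80 (chr16:38455561-38496335, plus strand), a ligand of CD28 and CTLA-4, had 35.9, 28.2 and 28.8 CPM in AhR-deficient cells in IL-4, against 60.6, 55.1 and 55.1 CPM in AhR-deficient medium cultures. In wild type it had 23.5, 20.9, 24.3 and 16.4 CPM in IL-4, against 42.95, 49.6, 45.0 and 79.4 CPM in medium. No IL-4 library reached any medium library. Its log2 change was -0.88 ± 0.20 in AhR-deficient cells and -1.35 ± 0.18 in wild type (edgeR adjusted p = 0.00442 and 3.99e-05), to 0.543 and 0.392 of its level in medium. With that library left out, the wild-type value was -1.11 ± 0.12 (adjusted p = 1.26e-05).

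Cd86 (chr16:36603869-36666081, minus strand), the other CD28 ligand, had 385, 312 and 346 CPM in AhR-deficient cells in IL-4, against 252, 253, 282 and 269 CPM in wild type in IL-4. In medium it had 365, 344 and 379.8 CPM in AhR-deficient cells, against 250.2, 277, 275 and 363 CPM in wild type. The genotypes did not overlap in IL-4. The IL-4 difference of Cd86 was -0.06 ± 0.11 in AhR-deficient cells and -0.14 ± 0.10 in wild type (edgeR adjusted p = 0.74 and 0.296), with 95% intervals of -0.29 to 0.16 and -0.34 to 0.05.

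By genotype, Cd86 differed by 0.40 ± 0.11 in IL-4 and 0.32 ± 0.11 in medium (edgeR adjusted p = 0.0726 and 0.0778), and Cd80 by 0.54 ± 0.19 and 0.07 (adjusted p = 0.153 and 0.85). When WT medium 7 was left out, Cd86 was higher in AhR-deficient cells, both in IL-4 (0.40, adjusted p = 0.018 in edgeR) and in medium (0.44 ± 0.08, adjusted p = 0.00985). Cd80 was then higher in IL-4 (0.54, adjusted p = 0.0412), and its difference of 0.31 in medium did not pass (adjusted p = 0.134).

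Cd40, the receptor for CD40 ligand of T cells (chr2:165055627-165072948, plus strand), varied most between replicates of the 10 genes, with a coefficient of variation of 0.31 in edgeR. It had 90.5, 60.5 and 70.0 CPM in AhR-deficient cells in IL-4, against 45.7, 51.8, 72.3 and 46.0 CPM in wild type in IL-4. In medium it had 100.0, 44.3 and 75.1 CPM in AhR-deficient cells, against 13.3, 31.9, 44.0 and 41.1 CPM in wild type. The medium groups did not overlap, by a margin of 44.3 to 44.0 CPM, and the IL-4 groups did.

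The genotype difference of Cd40 was 0.45 ± 0.34 in IL-4 (edgeR adjusted p = 0.514) and 1.16 ± 0.34 in medium (adjusted p = 0.0501). The value in medium passed without AhR-deficient number 5, WT medium 3 or WT medium 7 (1.42, 1.34 and 1.29, edgeR adjusted p = 0.0308, 0.0339 and 0.0458). With all libraries it passed in edgeR with upper-quartile scaling, without filtering, or on genes at 1 CPM in at least 3 libraries (adjusted p = 0.0463, 0.023 and 0.0447), in DESeq2 (adjusted p = 0.0279) and in limma-voom with a random block (adjusted p = 0.0398). The IL-4 difference of Cd40 was 0.01 ± 0.36 in AhR-deficient cells and 0.73 ± 0.32 in wild type (edgeR adjusted p = 0.989 and 0.0928). With the numbers as a block, Cd40 rose in wild type by 0.81 ± 0.20 (adjusted p = 0.00722). IL-4 over medium was 0.905, 1.37 and 0.932 in AhR-deficient numbers 4, 5 and 6, against 3.43, 1.62, 1.64 and 1.12 in wild-type numbers 1, 2, 3 and 7.

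**Figure D3:**
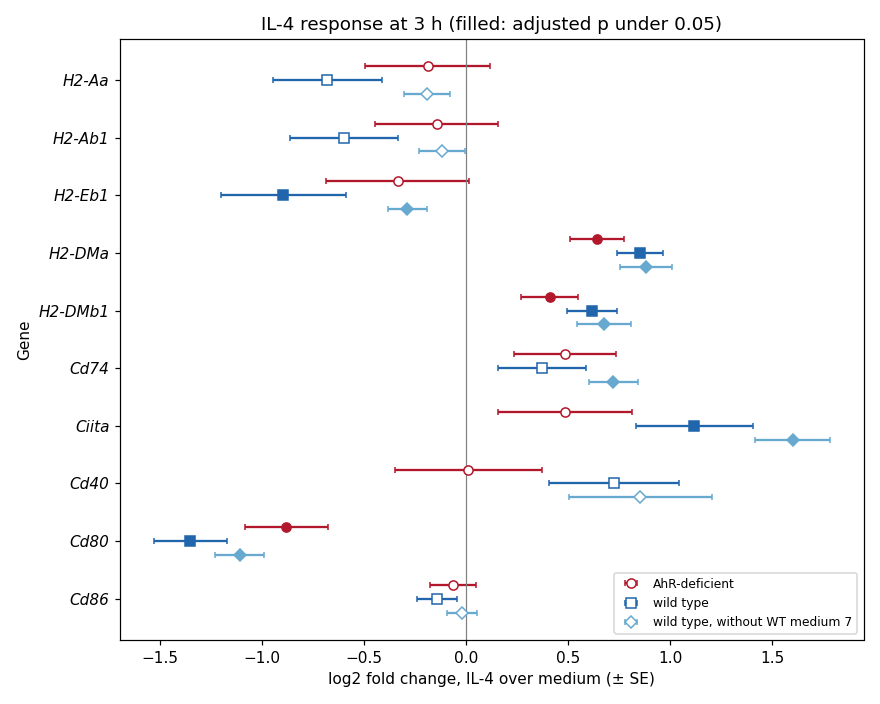
Log2 fold change of IL-4 over medium (± SE) for the 10 genes in AhR-deficient and in wild-type cells, the wild-type values also without WT medium 7. H2-DMa lies at 0.64 and 0.85, Cd80 at -0.88 and -1.35, and the chain genes move towards 0 in wild type when that library is left out.

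Counted over the 10 genes, IL-4 raised 2 and lowered 1 in AhR-deficient cells, where edgeR called 29.5% of all genes tested (15.4% higher and 14.2% lower). In wild type it raised 3 and lowered 2, where 35.9% of all genes were called (19.4% higher and 16.5% lower). A share of 3 in 10 is near the background, and 5 in 10 exceeds it by fewer than 2 genes. The median log2 fold change of the 10 genes was -0.03 in AhR-deficient cells and 0.11 in wild type (0.33 in wild type without WT medium 7), beside -0.009 and 0.009 for all genes. IL-4 and medium libraries did not overlap for 4 higher and 1 lower member in AhR-deficient cells (22.3% and 21.4% of all genes) and for 3 higher and 2 lower in wild type (18.4% and 14.9% of all genes).

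These counts moved with WT medium 7 and with the block. Without that library, IL-4 and medium libraries of wild type did not overlap for 5 higher and 2 lower members, Cd74 and Ciita having joined, beside 19.9% and 16.4% of all genes. In the test, 3 rose and 2 fell in AhR-deficient cells (29.5% of all genes called, 15.3% higher and 14.2% lower) and 4 rose and 2 fell in wild type (32% called, 17.3% higher and 14.6% lower). With the numbers as a block, 2 rose and 1 fell in AhR-deficient cells (36.2% called, 18.4% higher and 17.8% lower) and 4 rose and 1 fell in wild type (42.7% called, 22.8% higher and 19.9% lower).

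For genotype, 0 of the 10 genes were called by edgeR in IL-4, where 1.62% of all genes were called (0.956% higher and 0.664% lower). In medium 0 were called too, where 8.11% of all genes were (4.16% higher and 3.95% lower). At an unadjusted p under 0.05 the counts over all genes were 2715 in IL-4 and 3914 in medium. With all libraries, DESeq2 called 5 members in IL-4 (H2-Aa, H2-Ab1, H2-Eb1, Cd80 and Cd86) and 2 in medium (Cd40 and Cd86), where it called 5.44% and 13.4% of all genes. In IL-4 limma-voom called 1 member, H2-Eb1, and edgeR with no filter called 4 (H2-Aa, H2-Ab1, H2-Eb1 and Cd86), where 2% and 1.31% of all genes were called. The median log2 difference of the 10 genes was 0.495 in IL-4 and 0.38 in medium, beside -0.008 and 0.01 for all genes. Without WT medium 7 the median in medium was 0.785, beside 0.013.

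With WT medium 7 left out, edgeR called 6 members in IL-4, all higher in AhR-deficient cells, where 2.33% of all genes were called (1.42% higher and 0.911% lower). It then called 7 in medium, all higher, where 9.8% of all genes were (5.42% higher and 4.38% lower). With the IL-4 libraries alone in the model, 5 were called in IL-4, all higher, where 3.71% of all genes were (2.49% higher and 1.23% lower). Apart from any test, 6 of 10 were higher in every AhR-deficient library than in every wild-type library in IL-4 and 0 were lower, beside 9.28% and 8.91% of all genes. In medium 1 of 10 was higher, Cd40, and 0 were lower, beside 10.5% and 9.45% of all genes. With WT medium 7 left out, 8 of 10 were higher in medium, all but H2-DMa and H2-DMb1, and 0 were lower, beside 15% and 12.8% of all genes.

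**Figure D4:**
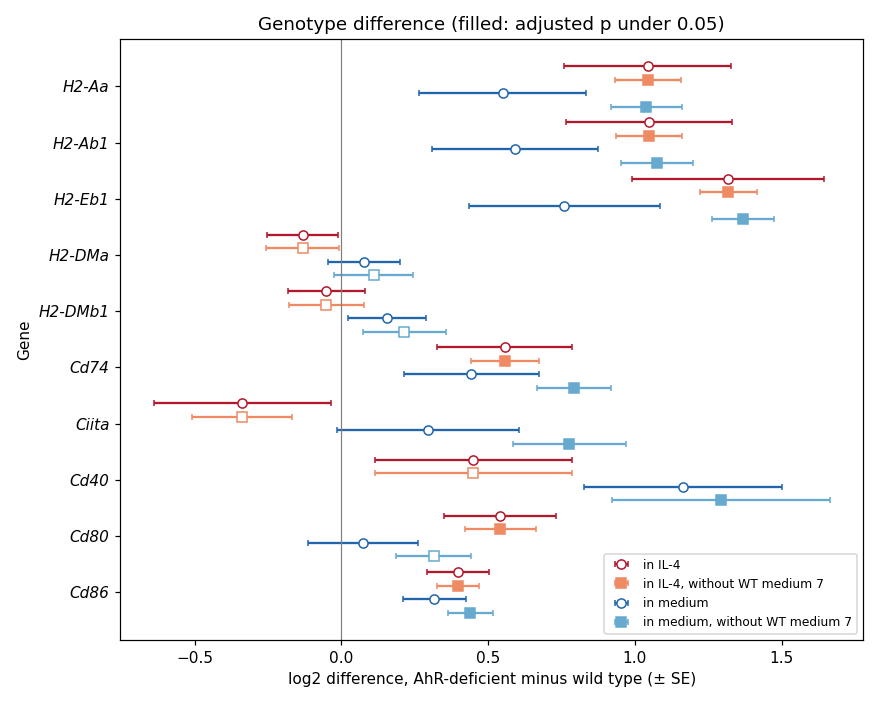
Log2 genotype difference (AhR-deficient minus wild type, ± SE) of the 10 genes in IL-4 and in medium, with all libraries and without WT medium 7. In IL-4 leaving the library out narrows the error and keeps the value (H2-Eb1 at 1.32), and in medium it moves H2-Eb1 to 1.37, against 0.76 with it.

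The responses of the genotypes to IL-4 were compared by the interaction, in which edgeR called 0 of 14754 genes and so 0% of all genes and 0 of the 10 members. The interaction of 558 genes had an unadjusted p under 0.05, and DESeq2 called 3 genes, none of them a member. With all libraries Cd40 had the largest member value, -0.72 ± 0.48 (adjusted p = 1), and without WT medium 7 it was Ciita, with the value given above. With the numbers as a block edgeR also called 0 genes, and 1251 had an unadjusted p under 0.05. In that fit H2-DMa and H2-DMb1 each had -0.21 ± 0.06, Ciita -0.71 ± 0.29 and Cd40 -0.74 ± 0.29 (edgeR adjusted p = 0.46, 0.447, 0.551 and 0.551). The chain genes, Cd74, Cd80 and Cd86 had values of 0.03 to 0.42 there. These tests do not show that the responses were alike.

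Markers of other cells that carry class II were read beside these results. Summed levels of 12 conventional dendritic cell markers were 788 to 818 CPM in AhR-deficient cells in IL-4, against 565 to 629.9 CPM in wild type in IL-4, and 203 to 232 CPM in AhR-deficient cells in medium, against 172 to 230.3 CPM in wild type in medium. WT medium 7 gave the 230.3 CPM. Clec10a made up most of the sum in IL-4 (411 to 458 CPM in AhR-deficient cells and 300.3 to 353 CPM in wild type). Clec10a itself rose with IL-4, by 2.91 ± 0.12 in AhR-deficient cells and by 2.57 ± 0.10 in wild type (edgeR adjusted p = 4.01e-10 and 1.59e-10). Of 11 tested markers, 6 rose and 1 fell with IL-4 in AhR-deficient cells (15.4% and 14.2% of all genes). In wild type 4 rose and 1 fell (19.4% and 16.5% of all genes). The sums in IL-4 thus hold these responses too. By genotype, 2 of the 11 were higher in AhR-deficient cells in IL-4 and 1 in medium (0.956% and 4.16% of all genes), and 0 were lower. Clec9a was higher in both, by 0.81 ± 0.10 and 0.57 ± 0.10 (edgeR adjusted p = 0.0014 and 0.00891), at levels of 5.73 to 11.5 CPM. Xcr1 had 4 counts or fewer in every library. Among the dendritic cell markers, Cd209a and Zbtb46 were picked after their values were seen. In WT medium 7 they stood at 38.0 and 7.73 CPM, against 10.1 to 19.5 and 2.46 to 3.53 CPM in the other 3 wild-type libraries in medium. The part of these cells in the class II levels, and in the genotype and IL-4 differences above, was not tested.

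For B cells, Ms4a1 and Pax5 had 15 counts or fewer in every library. The list's sum was 212 to 254 CPM in AhR-deficient cells and 232 to 299 CPM in wild type in IL-4, and 161 to 217 CPM in AhR-deficient cells and 146 to 184 CPM in wild type in medium. Ighm made up most of it, and WT medium 7 had the lowest sum. None of 6 tested B cell markers was called for genotype in either condition. Plasmacytoid dendritic cell markers summed to 158 to 185 CPM in AhR-deficient cells and 121 to 157 CPM in wild type in IL-4, and to 228 to 259 CPM in AhR-deficient and 178 to 217 CPM in wild-type cells in medium, with 0 of 8 called for genotype.

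Macrophage markers summed to 439 to 500.3 CPM in AhR-deficient cells and 564 to 632 CPM in wild type in IL-4, and to 266 to 318 CPM in AhR-deficient cells and 349.5 to 513 CPM in wild type in medium. Of 8 tested, 4 rose with IL-4 in AhR-deficient cells and 3 in wild type (15.4% and 19.4% of all genes), and 0 fell. By genotype 0 were called in IL-4 (1.62% of all genes). In medium only Adgre1 was called, lower in AhR-deficient cells (-0.47 ± 0.12, edgeR adjusted p = 0.0309), beside 3.95% of all genes lower. Monocyte markers summed to 13420 to 14930 CPM in AhR-deficient cells and 13520 to 14410 CPM in wild type in IL-4, and to 21700 to 24720 CPM in AhR-deficient and 21430 to 23770 CPM in wild-type cells in medium. Of these 12 markers, 5 fell with IL-4 in AhR-deficient cells and 7 in wild type (14.2% and 16.5% of all genes), and 0 rose. Within the monocyte list, Ccr2 was lower in AhR-deficient cells, with log2 differences of -1.75 ± 0.31 in IL-4 and in medium (edgeR adjusted p = 0.0204 and 0.00985). Fcgr1 was higher, by 0.97 ± 0.13 in IL-4 and by 0.60 ± 0.12 in medium (adjusted p = 0.00204 and 0.0151). The other lists were small or scattered. T and NK cell markers summed to at most 5.74 CPM, neutrophil markers to 379.7 to 1177 CPM, eosinophil or basophil markers to 107 to 428 CPM and erythroid or megakaryocyte markers to 33.3 to 120.3 CPM.

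The lists of other pathway genes below are read against the shares of all genes called for IL-4, 15.4% higher and 14.2% lower in AhR-deficient cells and 19.4% higher and 16.5% lower in wild type. For genotype those shares were 0.956% higher and 0.664% lower in IL-4, and 4.16% higher and 3.95% lower in medium. Of 4 tested class II and DM or DO genes that are no members, 1 rose and 1 fell with IL-4 in each genotype, with medians of -0.035 in AhR-deficient cells and -0.001 in wild type. H2-Eb2, a beta chain gene of low level, fell, with log2 changes of -3.40 ± 0.60 in AhR-deficient cells and -3.87 ± 0.60 in wild type (edgeR adjusted p = 0.000613 and 0.000171). Its levels were 0.250 ± 0.069 CPM in IL-4 against 2.70 ± 0.71 in medium in AhR-deficient cells, and 0.091 ± 0.083 against 1.36 ± 0.81 in wild type. H2-DMb2 was the gene that rose. H2-Oa, a chain of the inhibitor of H2-DM, was higher in AhR-deficient cells in medium by 0.70 ± 0.20 (adjusted p = 0.045), and H2-Ob joined it without WT medium 7 (0.56, adjusted p = 0.0418).

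In the list of class II transcription and turnover, 4 of 21 genes rose and 3 fell with IL-4 in AhR-deficient cells, and 5 rose and 4 fell in wild type, with medians of -0.067 and -0.002. With the numbers as a block, 5 rose and 6 fell in AhR-deficient cells. Rfx5, a subunit of the RFX complex known to bind X boxes of class II promoters, fell, with log2 changes of -0.76 ± 0.14 in AhR-deficient cells and -0.58 ± 0.12 in wild type (edgeR adjusted p = 0.000744 and 0.0016). It stood at 17.95 ± 0.98 CPM in IL-4 against 30.3 ± 3.38 CPM in medium in AhR-deficient cells, and at 14.01 ± 1.39 against 21.0 ± 3.75 CPM in wild type. Rfx5 was also higher in AhR-deficient cells in medium, by 0.53 ± 0.13 (adjusted p = 0.025). Irf4 and the feedback inhibitor Socs1 rose strongly in both genotypes (5.05 and 7.02 in AhR-deficient cells, 5.15 and 7.57 in wild type). Irf8 fell in wild type by 0.40 ± 0.09 (adjusted p = 0.00202), beside -0.26 ± 0.10 in AhR-deficient cells (adjusted p = 0.067), and Ifngr1, a chain of the receptor for interferon gamma, rose by 0.55 ± 0.10 in AhR-deficient cells and by 0.25 ± 0.09 in wild type (adjusted p = 0.000833 and 0.036, the second being 0.0599 without WT medium 7). Stat6, which carries the IL-4 signal, differed by -0.07 ± 0.06 in AhR-deficient cells and by -0.06 ± 0.06 in wild type (edgeR adjusted p = 0.49 and 0.426).

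By genotype, 1 of the 21 was called in IL-4, Irf8, higher in AhR-deficient cells by 0.40 ± 0.09 (edgeR adjusted p = 0.0474), and 3 were called without WT medium 7. In medium 3 were higher and 2 lower in AhR-deficient cells. They included Spi1, the lineage factor PU.1 (0.44 ± 0.08, adjusted p = 0.0093), Nfya, a subunit of the NF-Y complex that binds CCAAT boxes (0.24 ± 0.06, adjusted p = 0.0238), and Ifngr1, which was lower (-0.51 ± 0.10, adjusted p = 0.0106).

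Of 12 antigen processing genes, 2 rose and 3 fell with IL-4 in AhR-deficient cells, and 3 rose and 5 fell in wild type, with medians of -0.07 and -0.06. Ctss, the cathepsin that trims the invariant chain, rose by 0.59 ± 0.08 in AhR-deficient cells and by 0.39 ± 0.07 in wild type (edgeR adjusted p = 8.78e-05 and 0.000594). Ifi30, a lysosomal thiol reductase, rose by 0.27 ± 0.08 in AhR-deficient cells and by 0.42 ± 0.07 in wild type (adjusted p = 0.0209 and 0.0003). Ctsd and the tetraspanin gene Cd82 fell, with log2 changes of -0.54 ± 0.12 and -0.68 ± 0.12 in AhR-deficient cells and -0.44 ± 0.10 and -0.55 ± 0.10 in wild type (edgeR adjusted p of 0.00376 or less). Ctsb and Ctsz were higher in AhR-deficient cells in medium, by 0.51 ± 0.12 and 0.51 ± 0.10 (adjusted p = 0.0251 and 0.0134).

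Of 14 tested costimulatory and coinhibitory ligands that are no members, 4 rose and 4 fell with IL-4 in each genotype, with medians of 0.14 in AhR-deficient cells and 0.30 in wild type. Pdcd1lg2, the inhibitory PD-1 ligand PD-L2, rose by 4.35 ± 0.28 in AhR-deficient cells and by 3.92 ± 0.24 in wild type (edgeR adjusted p = 5.48e-08 and 2.01e-08). It stood at 47.9 ± 4.09 CPM in IL-4 against 2.34 ± 0.20 in medium in AhR-deficient cells, and at 38.4 ± 7.69 against 2.53 ± 1.09 CPM in wild type. Cd274, the ligand PD-L1, differed by 0.55 ± 0.35 in AhR-deficient cells and 0.64 ± 0.30 in wild type (adjusted p = 0.274 and 0.12). Icosl, the ICOS ligand, and Tnfsf9, the 4-1BB ligand, fell, with log2 changes of -1.85 ± 0.23 and -1.90 ± 0.26 in AhR-deficient cells and -1.49 ± 0.20 and -1.92 ± 0.24 in wild type (edgeR adjusted p of 8.63e-05 or less). When WT medium 7 was left out, 2 rose and 3 fell in wild type out of 13 tested. By genotype 0 of 14 were called in IL-4. In medium Nectin2 was higher in AhR-deficient cells (1.24 ± 0.30, adjusted p = 0.0289) and Vsir lower (-0.50 ± 0.11, adjusted p = 0.021).

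Of the CD40 signalling genes, 2 of 13 rose and 8 fell in AhR-deficient cells, and 3 rose and 9 fell in wild type, with medians of -0.46 and -0.49, beside 14.2% and 16.5% of all genes called lower. Relb, an NF-kB subunit, and Birc3, an inhibitor of apoptosis recruited by TRAF proteins, fell, with log2 changes of -1.30 ± 0.24 and -1.43 ± 0.24 in AhR-deficient cells and -1.20 ± 0.21 and -1.41 ± 0.21 in wild type (edgeR adjusted p of 0.000825 or less). Traf5, an adaptor of CD40, rose by 2.12 ± 0.15 in AhR-deficient cells and by 1.88 ± 0.13 in wild type (adjusted p = 1.64e-07 and 6.03e-08). Traf5 was lower in AhR-deficient cells in medium (-0.58 ± 0.15, adjusted p = 0.0327), the 1 gene of the list called there. Leaving out WT medium 7, 4 were called. In IL-4, 0 of 13 were called by genotype.

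**Figure D5:**
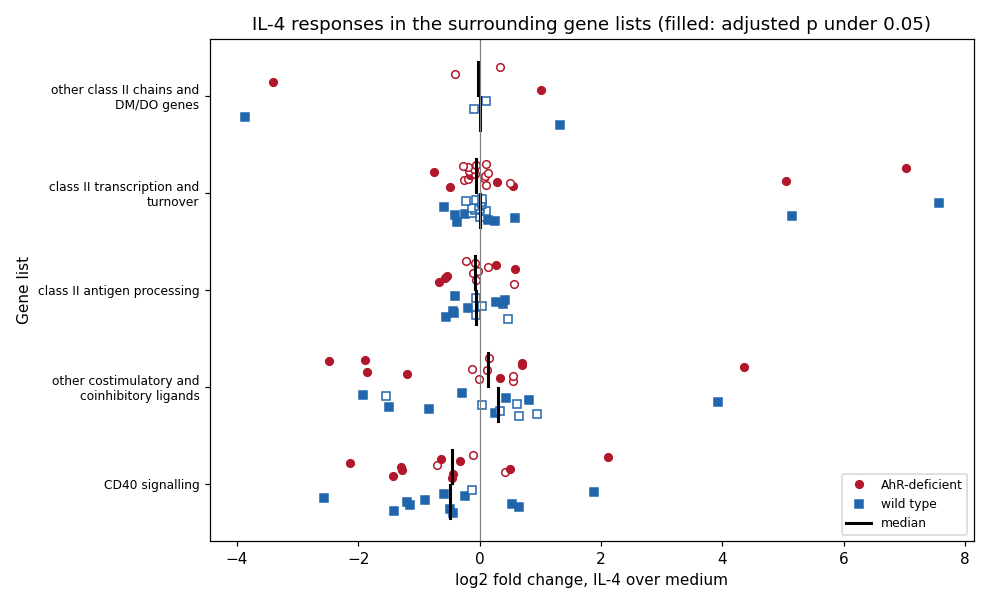
Log2 fold change of IL-4 over medium for the genes of 5 surrounding lists in AhR-deficient and wild-type cells, with each list's median as a bar. Socs1 lies farthest right at 7.02 and 7.57, and the medians lie between -0.49 and 0.30.

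How libraries varied around their group means set the members into clusters. Deviations of H2-Ab1 over the 14 libraries followed those of H2-Aa (r = 0.994), H2-Eb1 (0.99) and Cd74 (0.974), and without WT medium 7 these were 0.962, 0.964 and 0.899. Mul1 and Etv6 came next (0.91 and 0.896, falling to 0.701 and 0.643 without that library). H2-DMa and H2-DMb1 followed each other (0.953, and 0.961 without it), while H2-DMa and H2-Ab1 did not (0.108 and -0.2). Ciita with H2-Ab1 was 0.837 with WT medium 7 and 0.318 without it.

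The genes most like Ciita included Tmem120b (0.941), Cd209a (0.886), Zfp11 (0.881) and Lclat1 (0.853). Without WT medium 7 these values were 0.799, 0.693, 0.656 and 0.736. Cd40 had the closest followers, Txnrd1 (0.985), Plekho2 (0.978), Urb1 (0.978), Fgr (0.976) and Tm9sf4 (0.976), with r of 0.976 or more without WT medium 7 too. Map2k4 (0.922), Gprc5a (0.908), Zbtb46 (0.898), Taf7 (0.89) and Ccl22 (0.881) were most like Cd80. With WT medium 7 left out, they had 0.856, 0.758, 0.737, 0.912 and 0.68. Most like Cd86 were Zbtb46 (0.934), Cd74 (0.904), Uxt (0.896), Gpr35 (0.893) and Cd53 (0.89), with 0.826, 0.72, 0.725, 0.73 and 0.752 once it was left out. These are Pearson values over 14 libraries that share their scaling and, between conditions, their numbers, given as a description.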

How the data were processed

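Poly(A) RNA of 14 monocyte cultures (cells 90 to 95% pure per the labels) was made into libraries from 500 ng with a stranded kit and read as paired 100-nt reads, per the labels' protocols. The authors deposited raw read counts per gene. The submitters' processing notes name FastQC, STAR and mm10; roles, versions, as to the counter, its annotation and its strand setting, nothing is stated in the labels or notes. Groups came from sample titles. Nothing says that replicates are separate animals, so p-values measure the spread between these samples.

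Symbols, positions and joined exon lengths came from GENCODE M21 (GRCm38), which held 55394 of 55487 identifiers without version; promoters came from RefSeq GRCm38.p6. Genes were kept by filterByExpr (14754 genes, with at least 99.95% of each library's counts), scaled by TMM and fitted with edgeR 4.0.16 in R 4.3.3, with 1 mean per group over 14 libraries (10 residual degrees of freedom). The quasi-likelihood test was used with Benjamini-Hochberg adjustment and calls at 0.05. SE was taken as the absolute log2 fold change over the square root of F, and intervals are the value ± 1.96 SE. The steps were tested on simulated data.

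Deviations of same-numbered libraries from their group means correlated at r of 0.486 to 0.706 in numbers 1 to 6. In number 7, which holds WT medium 7, r was only 0.17. The numbers were taken to pair the samples, with the least ground for number 7. The block is printed where it changes a call and in a few other places. The main genotype comparisons had no block. No number occurs in both genotypes, so the alternative with a block was a random one in limma-voom.

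All 10 members were named, with up to 4 called genes of each list by smallest adjusted p, Stat6, Socs1, Irf4, Rfx5, Pdcd1lg2, Cd274 and H2-Ea-ps, and the 5 genes most like 5 members; some items are not reported here. H2-Ob, Brd2, Dexi, the ratios and single markers were chosen after their values were seen. Members and lists were chosen with earlier results of these data known. Alternatives used DESeq2 1.42.0 and limma 3.58.1. Figures were drawn with matplotlib.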

Additional observations from a re-analysis of the deposited data

Results flagged for a closer look

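The 3 class II chain genes each had 1 library far from the other 3 in wild type in medium, number 7 in each case. H2-Aa stood at 324.6 CPM there, against 110.9 to 132.4 CPM in the others. H2-Ab1 stood at 291.1 CPM, against 105.9 to 117.4 CPM. H2-Eb1 stood at 208.9 CPM, against 62.5 to 70.1 CPM. The gap to the nearest library was 0.899, 0.938 and 0.948 of the whole range, above Dixon's 95% critical value for 4 samples. The 20 groups of 4 libraries, 10 genes in 2 conditions, were examined and 3 met the rule; chance gives about 1 in 20, and the 3 genes vary together, so they are 1 pattern. Other genes apart in the same library, picked after they were seen, included Ccr2, which was lower at 478 CPM, against 1424 to 1729 CPM. Cd209a and Zbtb46 were higher, at 38.0 and 7.73 CPM. Its conventional dendritic cell marker sum was 230.3 CPM, against 172.1 to 198.9 CPM in the other 3. Its erythroid or megakaryocyte sum was 120.3 CPM, against 50.42 to 85.91 CPM, and its neutrophil sum 475.5 CPM, against 575.7 to 1177 CPM. What sets the library apart was not tested.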

How the results depend on the processing

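Directions held in most alternatives: of the log2 values recomputed, 788 kept direction and side of the threshold, 62 newly passed, 13 no longer passed and 17 changed sign. Members called were 2 to 5 for IL-4 in AhR-deficient cells, 4 to 7 for IL-4 in wild type, 0 to 6 for genotype in IL-4, 0 to 7 for genotype in medium and 0 for the interaction when 1 library was left out. With the fit that leaves out WT medium 7 set aside, the ranges were 2 to 3 for IL-4 in AhR-deficient cells, 0 to 0 for genotype in IL-4 and 0 to 1 in medium. With only the compared groups in the model, IL-4 in AhR-deficient cells had 5 members called and genotype in IL-4 had 5. With both libraries of number 7 left out, chosen after seeing the data, counts were 5 and 5 for those comparisons and 6 for genotype in medium. DESeq2 gave 5 for genotype in IL-4 and 2 in medium, limma-voom 1 in IL-4, and no filter 4 and 1. Upper-quartile scaling and a filter of 1 CPM in 3 libraries each gave 1 in medium. The random replicate block gave 1 in each condition for genotype. For fits in this section whose share of all genes called is not given above, the counts show only how calls moved. With the fixed block, IL-4 called 3 members in AhR-deficient cells and 5 in wild type (4 higher, 1 lower); beside H2-Eb1 (-0.69, adjusted p = 0.0548) and Cd40 (0.81, adjusted p = 0.00722) it changed no other member's call.

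List counts moved as follows. The transcription list had 11 genes called for IL-4 in AhR-deficient cells with the block, and, for genotype in IL-4, 2 with DESeq2 size factors, 2 with the random block and 3 without WT medium 7. Antigen processing had 1 there with the random block. CD40 signalling had 2, 2 and 4 for genotype in medium (upper quartile, random block, without WT medium 7), other class II genes 2 and other costimulatory ligands 5 for IL-4 in wild type, both without that library.

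Values that changed sign were near 0 or not called. With 1 library left out at a time, Cd40 for IL-4 in AhR-deficient cells ran from -0.249 to 0.304 and was -0.163 without number 4 in IL-4. Cd86 there ran from -0.142 to 0.013. H2-DMb1 for genotype in IL-4 ran from -0.129 to 0.025, and was 0.006 without both libraries of number 7. Cd80 for genotype in medium ran from -0.026 to 0.314. The interaction ran from -0.028 to 0.607 for H2-Ab1, -0.049 to 0.739 for H2-Eb1, -0.236 to 0.27 for Cd74 and -0.043 to 0.159 for Cd86, the lowest values being those without WT medium 7. Without both of number 7 it was -0.035 for H2-Aa, -0.064, -0.092, -0.267 and -0.027 for H2-Ab1, H2-Eb1, Cd74 and Cd86. The cause of these changes was not tested. Of the 10 genes Ciita has the fewest counts, at 4.34 to 18.9 CPM.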
